A study of Homo sapiens with 8 samples.

Results

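Genes of retinoid binding, metabolism and reception were followed in 2 human osteosarcoma cell lines, 143B and HOS, of which 143B is a derivative of HOS. The 8 genes are the retinoic acid binding proteins CRABP1 and CRABP2, the retinaldehyde reductases DHRS3 and RDH11, and the nuclear receptors RARA, RARG, RXRA and RXRB. The set was chosen by the measured change in 143B, where CRABP1 and DHRS3 were among the deepest falls, and all 8 stood among the 11807 genes listed in the tables of both lines. The 143B change is therefore given as a description with no test, whereas the HOS change took no part in the choice and was tested. The study compared control cells (NC) with cells labelled sgNAT10, described by the submitters as knockout cells for NAT10, the enzyme that writes N4-acetylcytidine on RNA. Each line had 2 NC libraries and 2 sgNAT10 libraries of polyadenylated RNA. The labels do not say whether these came from separate cultures, guides, clones or pools, so p-values measure only the spread between these libraries, which may be technical. In such bulk RNA, fewer cells with a transcript and less of it per cell cannot be told apart.

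Retinol enters this pathway by oxidation to retinaldehyde and then to retinoic acid. Retinaldehyde reductases such as DHRS3 run the first step backwards and so hold down the supply of retinoic acid. Inside the cell CRABP1 and CRABP2 bind retinoic acid. CRABP2 is known for delivering it to nuclear receptors and CRABP1 for buffering it and guiding it to breakdown. The receptors bind DNA as dimers of a retinoic acid receptor (RARA, RARB or RARG) with a retinoid X receptor (RXRA, RXRB or RXRG), and several pathway genes, DHRS3, CRABP2 and RARB among them, are known to be induced by retinoic acid in many cell types. Retinoic acid is known to shape skeletal patterning and bone formation, the lineage from which osteosarcoma arises.

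Levels are in FPKM (fragments scaled by transcript length and library total), which allows genes to be compared per length. The sum of all listed FPKM ranged from 484793 to 798137 over the libraries, and read depth is unknown. NAT10 RNA stood at 16.06 and 19.95 FPKM in the 143B controls and at 9.05 and 7.19 FPKM under the sgNAT10 label, but at 14.86 and 16.22 FPKM in the HOS controls and 21.13 and 19.14 FPKM under the label. The HOS difference (log2 0.35, adjusted p = 0.00544) lost its call under median-ratio scaling (0.14), under quantile normalization (0.20), with a spread shared by all 8 libraries and without sgNAT10 replicate 1, and was -0.026 after length and GC correction. The 143B difference (log2 -1.06, adjusted p = 0.0259) lost its call under median-ratio scaling (-0.80) and without NC replicate 2 (-0.91), sgNAT10 replicate 1 (-1.21) or sgNAT10 replicate 2 (-0.91). In no fit was the RNA of the target called lower in the HOS libraries labelled sgNAT10, and every HOS direction below is between libraries as labelled. The median log2 change over all tested genes was 0.188 in HOS (11957 genes) and -0.251 in 143B (11419 genes). Across genes, the change went with the GC content of transcripts with a Spearman rho of 0.324 in HOS and -0.388 in 143B, as a description over genes that are not independent. Of 13 osteoblast lineage markers 10 were listed in HOS and 9 in 143B, with SP7, BGLAP and IBSP in neither table. Their summed level was 1389 to 1583 FPKM in HOS NC and 1746 to 1809 FPKM in HOS sgNAT10, and 1406 to 1837 FPKM in 143B NC and 504.7 to 797.9 FPKM in 143B sgNAT10, most of it vimentin. By gene, 6 of 9 tested were called higher in HOS and 0 lower, where 45.5% and 23% of all genes were. In 143B 7 of 8 tested were lower past the threshold and 0 higher, where 25.4% and 12.9% of all genes were. Of 9 epithelial markers 6 were listed in HOS and 5 in 143B, with CDH1, KRT5 and KRT14 in neither. The keratins KRT18 and KRT8 made up most of their sum, which was 675.2 to 778.1 FPKM in HOS NC, 946.6 to 955.4 FPKM in HOS sgNAT10, 2306 to 3424 FPKM in 143B NC and 3763 to 4990 FPKM in 143B sgNAT10. KRT19 went the other way in both lines (log2 -1.43 in HOS and -1.29 in 143B), and in 143B CLDN4 was also lower (log2 -1.03) and no epithelial marker was called higher. The 3 listed of 8 blood markers summed to 17.89 to 18.22 FPKM in HOS NC and 19.12 to 19.51 FPKM in HOS sgNAT10, with none called, and to 105.7 to 129.1 FPKM in 143B NC and 52.5 to 57.63 FPKM in 143B sgNAT10. There CD68 (log2 -1.24) and CD14 (log2 -1.40) were lower and LYZ (log2 2.04) higher. Endothelial markers summed to at most 3.54 FPKM in any library, with CDH5 called higher and TEK lower in HOS, and adipose and neural markers to at most 7.5 FPKM, with SYP called higher and SNAP25 lower in HOS. CDH5 and TEK passed the filter only through the group where each was higher. The same holds for KRT19 in both lines and for ALPL, CLDN4 and CD14 in 143B. The calls of these genes carry no weight here, and ALPL is counted among the 7 lower osteoblast markers. PTPRC, CD3E, HBB and CSF1R of blood, and KDR and VWF of endothelium, were listed in neither line. The part of these shifts in the results below was not tested.

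The stretches upstream of CRABP1, DHRS3 and RDH11 are shown because the first pair stood lowest and RDH11 stood higher in 143B. They were taken from the 250 bases before each RefSeq start site (GRCh38.p14) and end where an annotated exon of the gene begins. Retinoic acid receptor dimers bind repeats of a hexamer, so the consensus AGGTCA was searched on both strands, along with its common forms: GGGTCA was searched as one form, AGTTCA was searched as another, and GGTTCA was the last form searched. Matches are in capitals, and a match to any form counts as a hexamer here.
CRABP1, chr15:78340103-78340323, plus strand: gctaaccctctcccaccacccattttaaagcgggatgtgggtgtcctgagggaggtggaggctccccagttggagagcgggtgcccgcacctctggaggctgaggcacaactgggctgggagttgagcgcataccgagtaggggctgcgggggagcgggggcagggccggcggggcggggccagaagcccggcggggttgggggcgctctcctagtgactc
DHRS3, the most distant start, chr1:12618211-12618460, minus strand: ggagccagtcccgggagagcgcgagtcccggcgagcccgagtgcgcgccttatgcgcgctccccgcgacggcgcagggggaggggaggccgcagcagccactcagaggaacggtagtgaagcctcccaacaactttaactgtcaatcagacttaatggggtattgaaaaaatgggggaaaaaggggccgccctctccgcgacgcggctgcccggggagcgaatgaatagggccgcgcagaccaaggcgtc
DHRS3, the middle start, chr1:12616796-12617039, minus strand: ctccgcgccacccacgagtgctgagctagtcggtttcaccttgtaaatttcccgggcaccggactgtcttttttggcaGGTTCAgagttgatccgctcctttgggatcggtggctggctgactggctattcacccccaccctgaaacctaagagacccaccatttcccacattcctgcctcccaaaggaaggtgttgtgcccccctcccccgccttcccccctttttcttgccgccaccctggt
DHRS3, the innermost start, chr1:12596614-12596863, minus strand: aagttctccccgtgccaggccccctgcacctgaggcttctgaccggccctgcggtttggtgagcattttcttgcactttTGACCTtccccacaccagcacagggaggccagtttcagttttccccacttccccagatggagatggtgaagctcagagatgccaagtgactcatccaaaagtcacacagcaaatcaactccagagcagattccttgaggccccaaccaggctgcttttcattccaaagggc
RDH11, chr14:67695815-67696014, minus strand: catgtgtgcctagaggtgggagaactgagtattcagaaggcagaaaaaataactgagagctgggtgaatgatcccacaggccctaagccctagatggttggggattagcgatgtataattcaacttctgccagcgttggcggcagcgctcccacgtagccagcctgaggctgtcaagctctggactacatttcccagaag
CRABP1 and RDH11 held no such hexamer in the 250 bases, nor did the most distant DHRS3 start. Single hexamers lay 172 bases before the middle DHRS3 start, as GGTTCA, and 171 bases before the innermost, as TGACCT on the printed strand. A hexamer of this kind is common, with 33.8% of 35116 promoters holding at least 1 in the same 250 bases. Direct repeats of 2 hexamers spaced by 1, 2 or 5 bases, which 0.0968%, 0.0313% and 0.074% of all promoters held, were in none of the windows of the 8 genes. The annotations differ at DHRS3, whose GENCODE gene ends at 12617731, so that the most distant RefSeq window lies outside it. The windows cover only the sequence next to the starts, and the tables do not say which start was in use.

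The binding proteins differed between the lines. CRABP1 (ENSG00000166426.7, GRCh38 chromosome 15, 78340324 to 78348230, plus strand, protein coding) stood at 38.28 and 33.46 FPKM in the 143B controls and at 0.86 and 0.91 FPKM in the 143B libraries labelled sgNAT10. This was the lowest level of any of the 8 genes in any group, under the 1 FPKM used as filter and pseudocount, and both controls lay far above both labelled libraries. The log2 change of -4.29 (SE 0.32) became -5.19 with a pseudocount of 0.1 and -2.79 with a pseudocount of 5, and the control mean was 40.5 times the sgNAT10 mean. In HOS, CRABP1 stood at 11.14 and 14.21 FPKM in NC and at 14.81 and 16.22 FPKM under the label. Both labelled libraries lay above the controls, by a small step, and the rise passed the threshold (log2 0.28, SE 0.12, adjusted p = 0.0406, limma). Removing NC replicate 1 ended this call (log2 0.12, adjusted p = 0.248), as did removing sgNAT10 replicate 1 (log2 0.34, adjusted p = 0.107) or replicate 2 (log2 0.22, adjusted p = 0.31), while without NC replicate 2 the value was 0.44 and called. It was also lost with no filter (adjusted p = 0.0511), with the shared spread (adjusted p = 0.337), with median ratios as the scale (log2 0.07, adjusted p = 0.629) and under quantile normalization (adjusted p = 0.589). CRABP1 was thus near the median change of all HOS genes, while in 143B it had rank 3 from the deepest fall among 11419 genes.

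CRABP2 (ENSG00000143320.8, chromosome 1, 156699606 to 156705816, minus strand, protein coding) was the more abundant of the pair in every library. It stood at 114.84 and 94.1 FPKM in the 143B controls and at 58.86 and 37.33 FPKM under the label, a log2 difference of -1.13 (SE 0.29). The 143B groups did not overlap, but CRABP2 kept an intermediate level where CRABP1 was near the floor. The HOS levels of CRABP2 were 53.74 and 63.51 FPKM in NC and at 57.73 and 59.5 FPKM with the label. The labelled libraries lay inside the range of the controls, and the log2 difference was 0.0045 (SE 0.096, adjusted p = 0.97). Under median-ratio scaling the HOS value was -0.22 (adjusted p = 0.047), so a small shift in either direction depended on the scale.

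**Figure D1:**
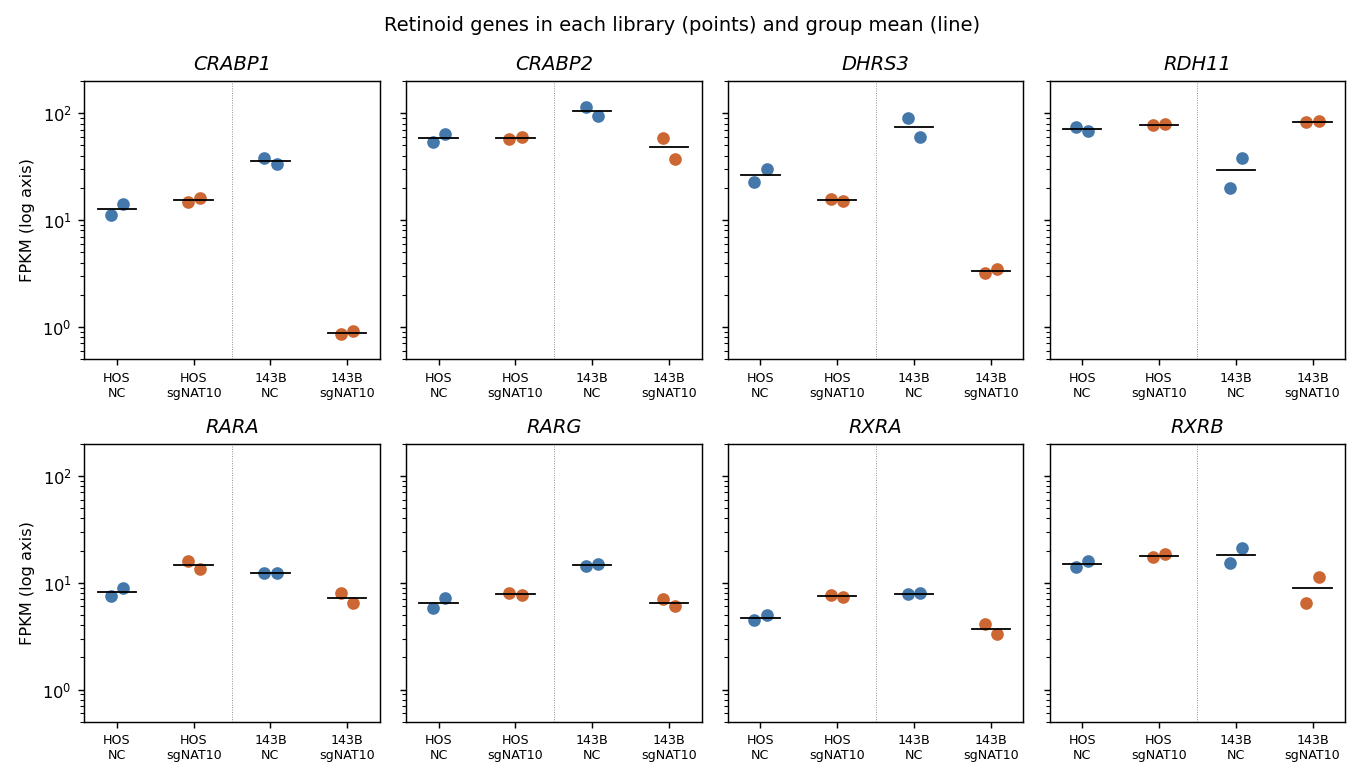
FPKM on a log axis for each of the 8 retinoid genes, with a point for each library and a line at the mean of the 2 libraries of a group. CRABP1 and DHRS3 are lowest in the 143B libraries labelled sgNAT10, and RDH11 is lowest in the 143B controls.

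DHRS3 was lower under the sgNAT10 label in both lines. DHRS3 (ENSG00000162496.8, chromosome 1, 12567910 to 12617731, minus strand, protein coding) stood at 90.33 and 59.32 FPKM in the 143B controls and at 3.22 and 3.48 FPKM under the label, a log2 difference of -4.09 (SE 0.31). It had rank 4 in 143B, between CRABP1 (-4.29) and the transcription factor BHLHE40 (-4.01), and DDIT4 (-4.50) preceded CRABP1. The 143B control libraries differed more from each other than the labelled ones did. In HOS, the data that took no part in the choice, DHRS3 stood at 22.84 and 29.97 FPKM in NC and at 15.67 and 15.1 FPKM under the label. Both labelled libraries lay below both controls, and the fall passed the threshold (log2 -0.73, SE 0.12, adjusted p = 3.6e-05, limma). Over 18 alternatives the HOS value ranged from -0.949 to -0.528, and 17 kept the call. The exception was the fit with a spread shared by all 8 libraries (adjusted p = 0.0632). DHRS3 ranked 460 from the bottom of 11957 HOS genes, and its fall ran against the median rise of all genes there.

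RDH11, a microsomal retinal reductase of the same enzyme superfamily as DHRS3, took the opposite position in 143B. RDH11 (ENSG00000072042.12, chromosome 14, 67676801 to 67695814, minus strand, protein coding) stood at 20.13 and 38.04 FPKM in the 143B controls and at 82.03 and 84.84 FPKM under the label. The log2 difference was 1.56 (SE 0.32), the only positive value among the 8 genes in 143B, and it was 1.11 without NC replicate 1 and 2.0 without NC replicate 2. HOS levels of RDH11 were 73.8 and 68.46 FPKM in NC and 77.74 and 78.97 FPKM under the label. These groups did not overlap, yet the difference did not pass the test (log2 0.14, SE 0.087, adjusted p = 0.166), and it was -0.088 under median-ratio scaling. It was called in 4 of 18 alternatives: without NC replicate 1 (adjusted p = 0.0228), with a common sum (log2 0.35, adjusted p = 0.000738), under quantile normalization (log2 0.23, adjusted p = 0.024) and with the replicate block and length and GC correction (adjusted p = 0.0478). Both 143B controls lay far below every other library, with the tables of the lines normalized separately.

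RARA rose in HOS, whereas RARG did not pass the test there. As deposited both lay below their controls in 143B, but RARG in HOS (log2 -0.074 after length and GC correction, -0.05 under quantile normalization) and RARA in 143B (log2 0.13 after length and GC correction) turned with the scale. RARA (ENSG00000131759.17, chromosome 17, 40309192 to 40357643, plus strand, protein coding) stood at 7.58 and 8.96 FPKM in HOS NC and at 15.81 and 13.34 FPKM under the label. No labelled library came near the controls, and the rise passed the threshold (log2 0.75, SE 0.12, adjusted p = 2.71e-05, limma). It was called in all 18 alternatives run, with values from 0.366, after length and GC correction, to 0.943. In 143B RARA stood at 12.24 and 12.23 FPKM in NC and at 7.93 and 6.5 FPKM under the label, a log2 difference of -0.69 (SE 0.31). Both labelled libraries lay below the controls. RARG (ENSG00000172819.16, chromosome 12, 53210567 to 53232980, minus strand, protein coding) stood at 5.79 and 7.22 FPKM in HOS NC and at 8.07 and 7.6 FPKM under the label (log2 0.24, SE 0.12, adjusted p = 0.0758). The HOS groups did not overlap but lay close, and the difference was not called. It was called with a common sum (log2 0.43, adjusted p = 0.00157). A replicate block with crossed numbers, added after seeing the data, also called it (adjusted p = 0.0493). Without NC replicate 2 the log2 difference was 0.38. In 143B RARG stood at 14.2 and 15 FPKM in NC and at 6.97 and 6 FPKM under the label. The log2 difference was -1.06 (SE 0.31) with no overlap, and it was -0.273 after length and GC correction.

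Of the retinoid X receptors, the shared partners of the dimers, RXRA rose in HOS and RXRB did not pass the test. Both lay below their controls in 143B as deposited, and RXRB in HOS turned to -0.323 after length and GC correction (adjusted p = 0.00274). RXRA (ENSG00000186350.10, chromosome 9, 134317098 to 134440585, plus strand, protein coding) stood at 4.44 and 5.01 FPKM in HOS NC and at 7.75 and 7.35 FPKM under the label. The groups were well apart, and the rise passed the threshold (log2 0.58, SE 0.11, adjusted p = 0.000204, limma). It was called in 17 of 18 alternatives, with values from 0.287, under quantile normalization, to 0.762, and was lost with the spread shared by all 8 libraries (adjusted p = 0.0629). In 143B RXRA stood at 7.81 and 7.95 FPKM in NC and at 4.09 and 3.33 FPKM under the label, a log2 difference of -0.92 (SE 0.33) that was -0.28 after length and GC correction. RXRB (ENSG00000204231.10, chromosome 6, 33193588 to 33200688, minus strand, protein coding) was the more abundant RXR in every library. It stood at 14.16 and 15.97 FPKM in HOS NC and at 17.3 and 18.45 FPKM under the label (log2 0.23, SE 0.10, adjusted p = 0.0519). The HOS groups did not overlap and the difference missed the threshold. As a rise it passed with the filter at 5 FPKM (adjusted p = 0.0481) and with a common sum (log2 0.43, adjusted p = 0.000455). It also passed with the crossed replicate block (adjusted p = 0.0384). Without NC replicate 2 the log2 difference was 0.32. In 143B RXRB stood at 15.23 and 21.34 FPKM in NC and at 6.49 and 11.43 FPKM under the label (log2 -0.98, SE 0.36), and was -0.24 after the same correction. Summed over the 4 receptors, the level was 31.97 and 37.16 FPKM in HOS NC against 48.93 and 46.74 under the label, and 49.48 and 56.52 FPKM in 143B NC against 25.48 and 27.26. The mean GC content of the coding transcripts was 62.2% for RARA, 62.7% for RARG, 66.7% for RXRA and 58.5% for RXRB, beside 59.5% for DHRS3, 57.8% for CRABP1, 56.3% for CRABP2 and 48.4% for RDH11, and a median of 50.1% over HOS genes.

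**Figure D2:**
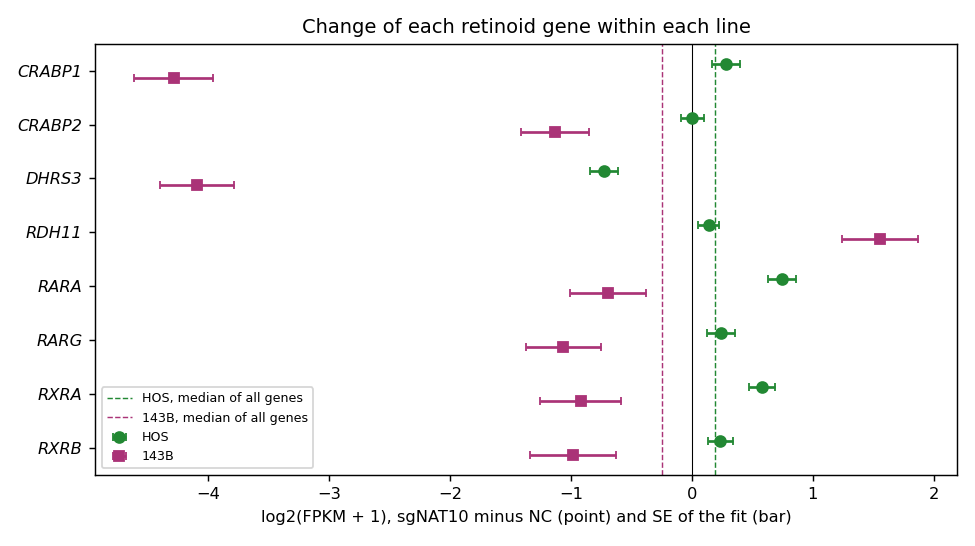
Log2 change of each retinoid gene, sgNAT10 minus NC, in HOS (circles) and 143B (squares), with the SE of the fit as bars and dashed lines at the median change of all genes (0.188 in HOS, -0.251 in 143B). DHRS3 lies to the left in both lines, RDH11 is the only 143B value to the right of 0, and the receptors lie on opposite sides as deposited, although RARG and RXRB in HOS and RARA in 143B change sign after length and GC correction.

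All 8 genes passed the filter in both lines. In HOS 4 of 8 were called, 3 higher (CRABP1, RARA, RXRA) and 1 lower (DHRS3), where 68.5% of all tested genes were called, 45.5% higher and 23% lower. The count alone therefore does not set these genes apart from the rest of the HOS table. Under median-ratio scaling the 4 called were 2 higher and 2 lower, CRABP1 being lost and CRABP2 called lower. The median log2 change of the 8 genes was 0.238, beside 0.188 for all genes. Groups did not overlap for 6 genes that were higher and 1 that was lower, where 83.1% of all HOS genes did not overlap, 53.9% higher and 29.2% lower. In 143B the members were not tested, while 38.3% of all genes were past the same threshold, 25.4% lower and 12.9% higher. No groups overlapped in 143B, with 7 genes lower and 1 higher, where 66.8% of all genes did not overlap, 42.8% lower and 23.9% higher. Nothing is read from the 143B counts, since that contrast chose the set.

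**Figure D3:**
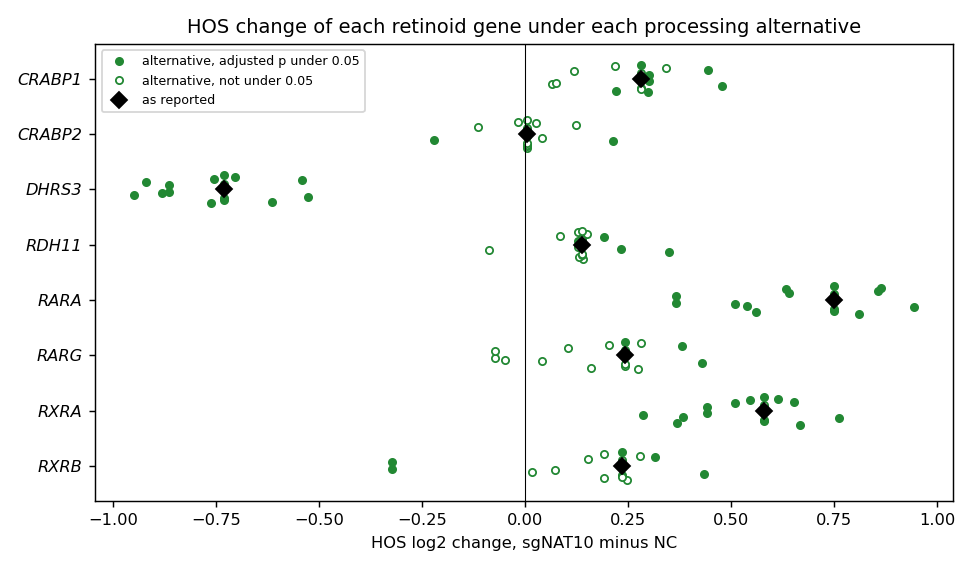
HOS log2 change of each retinoid gene as reported (diamond) and under 18 processing alternatives (circles, filled where the adjusted p was under 0.05); some circles lie behind the diamonds. DHRS3 stays between -0.949 and -0.528 and RARA between 0.366 and 0.943, while CRABP2, RDH11, RARG and RXRB fall on both sides of 0.

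Control levels were set side by side without a test, because the tables of the lines were normalized separately and the 143B controls belong to the contrast that chose the genes. CRABP1 was 2.83 times as high in the 143B controls as in those of HOS, and DHRS3 also 2.83 times. For CRABP2 the ratio was 1.78, for RARG 2.24, for RXRA 1.67 and for RARA 1.48, and in none of these did the controls of the lines overlap. RXRB had a ratio of 1.21 with overlapping controls. RDH11 went the other way, 2.45 times as high in HOS. After length and GC correction the binding proteins and enzymes kept their direction, with log2 differences (143B minus HOS) of 0.667 for CRABP1, 0.256 for CRABP2, 0.459 for DHRS3 and -0.609 for RDH11. The receptors did not, at -0.666 for RARA, -0.158 for RARG, -0.72 for RXRA and -0.644 for RXRB. The genes with the highest control level in 143B relative to HOS, CRABP1 and DHRS3, were also those that stood lowest under the label there, and both comparisons share the 143B controls.

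The order of levels differed between groups. In the HOS controls it ran RDH11, CRABP2, DHRS3, RXRB, CRABP1, RARA, RARG and RXRA, from 71.1 to 4.73 FPKM, and the only neighbours whose libraries overlapped were RXRB and CRABP1. In the 143B controls it ran CRABP2, DHRS3, CRABP1, RDH11, RXRB, RARG, RARA and RXRA, from 104.5 to 7.88 FPKM, with overlap between CRABP1 and RDH11 and between RDH11 and RXRB. Under the label in 143B, DHRS3 moved from the second place to the seventh and CRABP1 from the third to the last, while RDH11 led at 83.4 ± 1.99 FPKM (SD, n = 2). There RXRB overlapped RARA, RARA overlapped RARG, and RXRA overlapped DHRS3. Under the label in HOS, RDH11 and CRABP2 led as in the controls, and CRABP1, DHRS3 and RARA overlapped in turn at 15.5 ± 0.997, 15.4 ± 0.403 and 14.6 ± 1.75 FPKM. RARG and RXRA overlapped below them.

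Ratios between members within a library do not depend on the scale of that library. DHRS3 over RDH11 was 4.49 and 1.56 in the 143B controls and 0.0393 and 0.041 under the label. In HOS the same ratio was 0.309 and 0.438 in NC and 0.202 and 0.191 under the label. DHRS3 was thus lower relative to RDH11 in every labelled library than in every control of its line. CRABP1 over CRABP2 was 0.333 and 0.356 in the 143B controls and 0.0146 and 0.0244 under the label, but 0.207 and 0.224 in HOS NC and 0.257 and 0.273 under the label. This ratio moved down in 143B and slightly up in HOS, with no overlap in either. RARA over RARG was higher under the label in both lines, at 1.31 and 1.24 against 1.96 and 1.76 in HOS, and at 0.862 and 0.815 against 1.14 and 1.08 in 143B. The balance of the pair thus had the same direction in both lines. RXRA over RXRB was 0.314 in both HOS controls and 0.448 and 0.398 under the label, and in 143B the groups overlapped, at 0.513 and 0.373 against 0.63 and 0.291. With 2 libraries against 2 an exact permutation test cannot go below p = 0.33, and no test was run on these ratios.

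**Figure D4:**
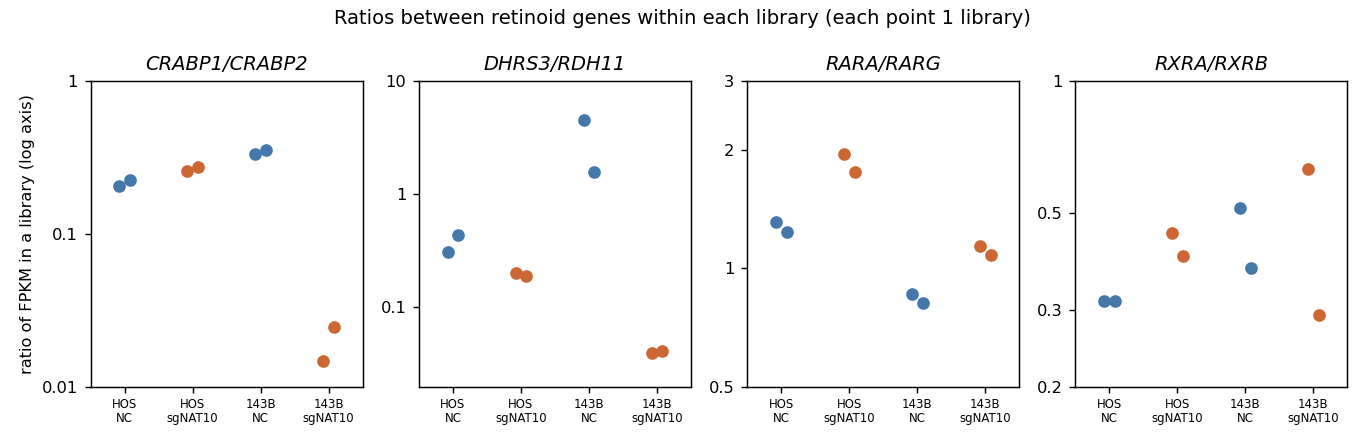
Ratio of FPKM between members of a pair within each library, on a log axis, with a point for each library. DHRS3 over RDH11 is lower and RARA over RARG higher under the sgNAT10 label in both lines, whereas CRABP1 over CRABP2 moves in opposite directions and RXRA over RXRB overlaps in 143B.

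Other genes of the pathway, 105 in all, were taken from lists of uptake, binding, conversion, reception and response. HOS listed 75 of them and tested 71, of which 39 rose and 9 fell, 67.6% in all beside 68.5% of all genes, with 54.9% higher and 12.7% lower. The total share was that of the table as a whole. The split was 28 higher and 14 lower under median-ratio scaling and 29 and 16 after length and GC correction. 143B listed 65 and tested 54, of which 4 were higher and 16 lower past the threshold, 37% beside 38.3% of all genes, and these are given as a description. The counts include genes that passed the filter only through the group where each was higher. These were RBP4, CYP26B1, FOXA1 and NR4A2 in HOS, and STRA6, RDH5 and NCOA1 in 143B. The median log2 change of the tested pathway genes was 0.335 in HOS and -0.555 in 143B. Each list below stands beside the shares of all genes called, 45.5% higher and 23% lower in HOS. In 143B these shares were 12.9% higher and 25.4% lower.

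Retinoid uptake and binding held few listed genes. The 3 tested genes of uptake and esters all rose in HOS as deposited (median log2 0.419), but SCARB1 alone kept the call under median-ratio scaling, quantile normalization, and length and GC correction. These were STRA6, the cell surface receptor for retinol carried by RBP4, at 11.81 and 14.7 FPKM in NC and 18.99 and 16.98 FPKM under the label (log2 0.42, adjusted p = 0.0036, but -0.0461 after length and GC correction), the lipoprotein receptor SCARB1 (log2 1.16) and the esterifying enzyme DGAT1 (log2 0.35, but -0.129 after that correction). In 143B STRA6 was lower, at 1.83 and 1.37 FPKM against 0.61 and 0.25, as was DGAT1 (log2 -1.23), and SCARB1 stood at -0.395, while none of the 3 was past the threshold after the correction. STRA6 passed the filter in 143B only through the controls, so its call there carries no weight. Of 4 further binding proteins tested in HOS 1 rose and 1 fell. The 1 that rose was RBP4, the carrier of retinol in blood. It stood at 0.6 and 0.53 FPKM in NC and at 2.11 and 1.5 FPKM under the label (log2 0.83). RBP4 passed the 1 FPKM filter only through the labelled libraries, so its call carries no weight here. FABP5, the other carrier of retinoic acid, stood at 212.27 and 193.6 FPKM in HOS NC and at 178.2 and 191.59 FPKM under the label and was not called. In 143B none of the 4 was past the threshold, and FABP5 stood at 112.31 and 158.36 FPKM against 112.31 and 174.87.

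Of 5 tested genes of retinoic acid synthesis and breakdown, 4 rose and 1 fell in HOS as deposited, and all 3 tested in 143B were lower. The 4 rises include CYP26B1, which passed the filter only through the labelled libraries. The HOS split was 3 and 1 under median-ratio scaling, quantile normalization, and length and GC correction. Of all genes, 45.5% were called higher and 23% lower in HOS, and 25.4% lower in 143B. In the list of oxidoreductases RDH10, which oxidizes retinol to retinaldehyde and is known as a partner of DHRS3, rose in HOS from 1.43 and 1.22 FPKM to 4.34 and 4.56 FPKM (log2 1.23, adjusted p = 1.45e-07). In 143B it was 5.17 and 8.63 FPKM in NC and 1.8 and 2.46 FPKM under the label (log2 -1.31). RDH10 thus lay on opposite sides in the lines while DHRS3 lay below the controls in both. Of the retinaldehyde dehydrogenases, ALDH1A2 was the main one in HOS, where it fell from 58.44 and 56 FPKM to 39.03 and 39.59 FPKM (log2 -0.53, adjusted p = 6.05e-05). ALDH1A3 rose there from 4.42 and 3.59 FPKM to 7.96 and 8.44 FPKM (log2 0.88, adjusted p = 5.3e-06). In 143B ALDH1A3 was the higher of the 2, at 7.91 and 17.29 FPKM in NC and 1.33 and 1.64 FPKM under the label (log2 -2.36), and ALDH1A2 stood at 2.74 and 6.1 FPKM against 0.52 and 1.23 (log2 -1.485). Among the cytochromes that break down retinoic acid, CYP26B1 rose in HOS from 0.16 and 0.28 FPKM to 1.2 and 1.22 FPKM (log2 0.86). It passed the filter there only through the labelled libraries, so its call carries no weight here. In 143B, below the filter, CYP26B1 was listed at 0.87 and 1.1 FPKM in NC and at 0 and 0.08 FPKM under the label. CYP2S1 stood at 8.61 and 7.1 FPKM in 143B NC and at 3.04 and 2.73 FPKM under the label (log2 -1.18, -0.579 after length and GC correction). In HOS it rose as deposited (log2 0.37, adjusted p = 0.019), a call lost after that correction (log2 0.21). CYP1B1, which can also oxidize retinol, rose in HOS (log2 1.075). Among the other oxidoreductases AKR1B1 rose (log2 0.85), RDH13 rose (log2 0.63) and ADH5 fell (log2 -0.75) in HOS. In 143B AKR1B1 (log2 -1.09) and DHRS7 (log2 -1.27) were lower and DHRS4L2 (log2 1.10) was higher, as was RDH5 at a low level (log2 0.62), named after its value was seen. RDH5 passed the filter there only through the labelled libraries, so its call carries no weight here. DHRS4L2 shares sequence with DHRS4, so its value is uncertain. Over the list, 3 rose and 1 fell of 9 tested in HOS (median 0.118), and 2 were higher and 3 lower of 10 in 143B (median -0.258). The HOS split was 3 and 3 under median-ratio scaling and the 143B median 0.0104, so no direction is given for this list.

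The third retinoic acid receptor, RARB, known as a direct target of the other receptors, fell in HOS from 6.38 and 5.12 FPKM to 3.82 and 4.03 FPKM (log2 -0.45, adjusted p = 0.00299), where RARA rose. In 143B it lay below the filter, at 0.72 and 1.38 FPKM in NC and 0.14 and 0.09 FPKM under the label. RXRG and RORB were listed in neither line, and RORA did not pass the test in HOS (log2 0.09). Of 13 tested receptors that can pair with an RXR or compete for its sites, 10 rose and 1 fell in HOS as deposited (median 0.347), against 5 and 1 under median-ratio scaling and 5 and 2 after length and GC correction (median -0.0346). As deposited these were 76.9% higher and 7.69% lower, beside 45.5% and 23% of all HOS genes. NR4A1 (log2 0.86), NR4A2 (log2 1.15) and NR2F2 (log2 0.78) rose and the oxysterol receptor NR1H3 fell (log2 -0.61), all 4 called after length and GC correction, at 0.536, 0.806, 0.378 and -0.81. NR4A2 stood at 0.1 and 0.24 FPKM in HOS NC and at 1.57 and 1.6 FPKM under the label. It is counted among the 10 but passed the filter only through the labelled libraries, so its call carries no weight here. In 143B 1 was higher and 4 lower of 11, or 9.09% and 36.4%, beside 12.9% and 25.4% of all genes. After the correction 4 were higher and 4 lower. As deposited, NR2F2 stood at 1.47 there, NR4A1 at -2.09, the thyroid hormone receptor THRA at -2.09 and PPARD at -1.19. NR2F2 was therefore above its controls in both lines.

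Coregulators of the receptors rose in 8 of 17 cases in HOS and fell in 0 as deposited (median 0.25), against 7 and 1 under median-ratio scaling and 9 and 5 after length and GC correction, with the coactivators NCOA6 (log2 1.14), EP300 (log2 1.13) and CREBBP (log2 1.03) and the corepressor component TBL1X (log2 1.10) leading. After length and GC correction these values were 0.566, 0.648, 0.472 and 0.55 in the same order. The 47.1% called higher lay near the 45.5% of all HOS genes. In 143B 1 of 14 was higher, NCOA1 at 0.97 (log2), and 1 was lower, against 5 and 1 under median-ratio scaling. NCOA1 passed the filter there only through the labelled libraries, so its call carries no weight here. Of 23 tested genes known to respond to retinoic acid, 12 rose and 6 fell in HOS as deposited (median 0.262), against 9 and 9 under quantile normalization (median -0.0309) and 8 and 7 after length and GC correction (median -0.0828). These shares, 52.2% higher and 26.1% lower, lay near the 45.5% and 23% of all HOS genes. The 12 rises include CYP26B1 and FOXA1, which passed the filter only through the labelled libraries. The rises included SOX9 (log2 1.59), GATA6 (log2 1.17) and TNFAIP2 (log2 0.88), which stayed called after the correction at 1.04, 0.616 and 0.394. RARRES3 fell from 8.01 and 9.2 FPKM to 3.63 and 3.38 FPKM (log2 -1.09, adjusted p = 4.99e-07), and RARB, RARRES2, CDX1 and EGR1 were among the other falls. RARRES2, CDX1 and FOXA1 were chosen for naming after their values were seen. In 143B 4 of 12 were lower and 0 higher (median -0.708), or 33.3% and 0%, beside 25.4% and 12.9% of all 143B genes. The 4 were EGR1 (log2 -2.42), TNFAIP2 (log2 -1.47), GATA6 (log2 -1.08, -0.279 after length and GC correction) and STRA6 (log2 -0.87, -0.0569 after the correction). TNFAIP2 was -0.651 after the correction. STRA6 passed the filter in 143B only through the controls, so its call carries no weight here.

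**Figure D5:**
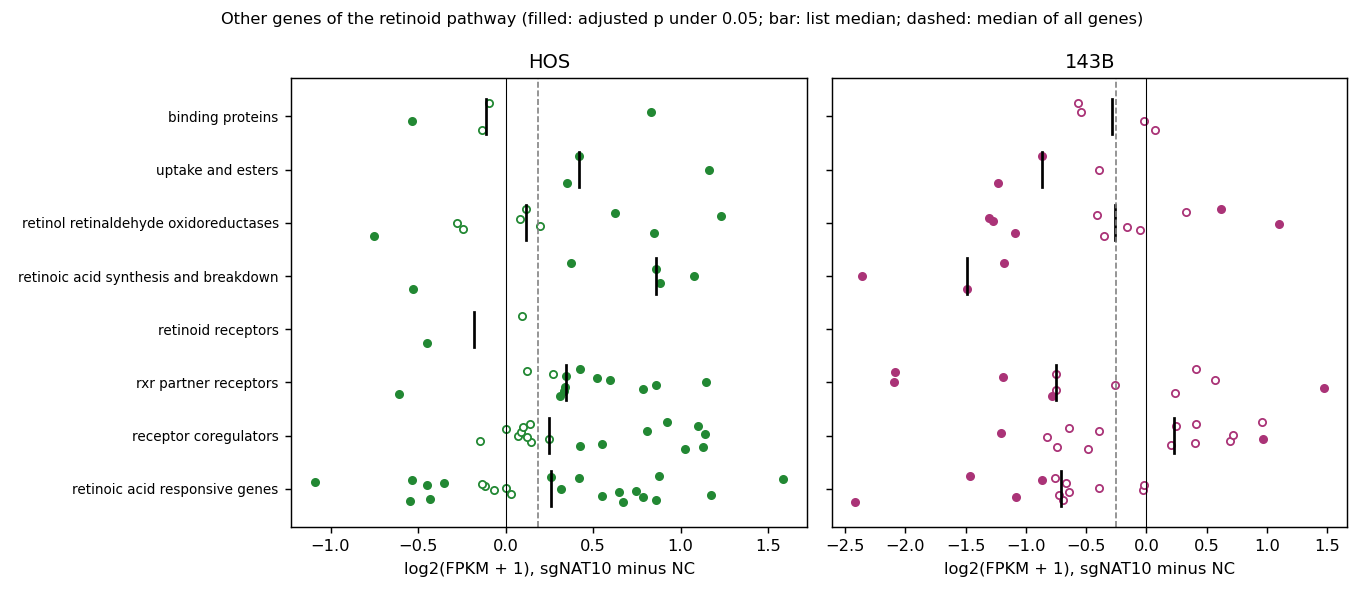
Log2 change, sgNAT10 minus NC, of the other tested pathway genes by list in HOS (left) and 143B (right), filled where the adjusted p was under 0.05, with a bar at the list median and a dashed line at the median of all genes. In HOS 39 of 71 genes rose and 9 fell as deposited (28 and 14 under median-ratio scaling), and in 143B 4 of 54 were higher and 16 lower. The counts include genes that passed the filter only through the group where each was higher.

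The genes most like CRABP1 over the 8 libraries, by the root mean square difference of log2(FPKM + 1) centred within each line, were PLAT at 0.214, DDIT4 at 0.22 and HOXB8 at 0.236, among 10654 genes. Each was far lower under the label in 143B (log2 -4.71, -4.50 and -3.94) and higher in HOS (log2 0.52, 0.80 and 0.72). For DHRS3 they were LOC101929479 at 0.321, the smooth muscle actin ACTG2 at 0.337 and the NF-kB cofactor BCL3 at 0.362, each lower under the label in both lines. CRABP1 had order 4 for DHRS3 and DHRS3 order 9 for CRABP1, at 0.381. These differences rest mostly on the 143B contrast, which chose the genes.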

How the data were processed

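RNA of 8 libraries, 2 for each label in each of 2 cell lines, was measured by sequencing. The authors deposited FPKM per gene in a table for each line. Tools named in the submitters' processing notes are Bowtie2, RSEM and DESeq2, without version or role, with GRCh38 as build, and which annotation was used is not stated there. Each listed gene reached at least 0.51 FPKM in at least 2 libraries of its line. No counts were given and low values showed no steps, so depth stays unknown and counting intervals are left out.

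FPKM were transformed to log2(FPKM + 1), a gene was kept in a line when 2 or more of its 4 libraries reached 1 FPKM, and the lines were fitted apart with limma 3.58.1 in R 4.3.3 (two-sided, with an intensity trend, threshold 0.05 on the Benjamini-Hochberg adjusted p over all tested genes). Changes are sgNAT10 minus NC on this scale, which understates changes of low genes. A gene low in 1 group could pass the filter through the other group alone, and such a call is not read as support. Members, gene lists and alternatives were chosen with earlier results of these data known. Named were the members, up to 4 genes of each list per line by size of change, the 3 genes nearest CRABP1 and DHRS3 in profile, and their neighbours in the order of 143B falls. Alternatives were other pseudocounts, filters, scalings, moderation settings, a replicate block, a shared spread, each library left out, and a length and GC correction (splines with 4 degrees of freedom, which also recentre each library) from GENCODE release 29, matched by name for 98.4% of 143B and 98.5% of HOS genes. The fit was tested on simulated data for each line. Promoter sequences are from RefSeq (GRCh38.p14), in which all 8 members matched by symbol. Some genes of the lists are counted but not reported here by name.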

Additional observations from a re-analysis of the deposited data

Results flagged for a closer look

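For 5 of the 8 genes every library labelled sgNAT10 lay below both controls in 143B and above both controls in HOS. Of 10655 genes tested in both lines 29.3% were so placed, and the set was chosen by the 143B change. The difference between the lines was not tested, since the 143B contrast chose the genes. As the 143B log2 change minus the HOS log2 change, it was -4.57 for CRABP1 (-4.29 and 0.28), -1.44 for RARA (-0.69 and 0.75), -1.30 for RARG (-1.06 and 0.24), -1.50 for RXRA (-0.92 and 0.58) and -1.21 for RXRB (-0.98 and 0.23). The median change of all genes also had opposite signs, -0.251 in 143B and 0.188 in HOS, and NAT10 RNA itself stood lower under the label in 143B and, as deposited, higher in HOS (-0.026 after length and GC correction). The part of these in the difference was not tested. After length and GC correction CRABP1 stood at -4.04 in 143B and 0.30 in HOS, and RXRA at -0.28 and 0.44. RARA was then above 0 in both lines and RARG and RXRB below 0 in both.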

How the results depend on the processing

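The number of all genes called was 8195 in HOS, and 1864 with a spread shared by all 8 libraries. In 143B it was 4370, 1995 to 5067 with a library left out (2360 without sgNAT10 replicate 1, 1995 without sgNAT10 replicate 2), 7652 with a replicate block, and 7117 with the block and length and GC correction. Of the 8 members, 4 were called in HOS, 8 with a common sum, 1 with the shared spread, and 3 to 6 with a library left out. The members were not tested in 143B. Pathway genes called in HOS numbered 48, 15 with the shared spread, and 39 to 52 with a library left out.

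Signs turned as follows, and the cause was not tested. In HOS, CRABP2 was -0.222 and RDH11 -0.0884 under median-ratio scaling, and CRABP2 was -0.114 without NC replicate 1 and -0.017 without sgNAT10 replicate 2, within a range of -0.114 to 0.123 with a library left out. RARG was -0.0499 under quantile normalization. With length and GC correction, alone or with the replicate block, RARG was -0.0738, RXRB -0.323 and NAT10 -0.026 in HOS, and RARA was 0.133 in 143B. The control differences between lines turned to -0.666 (RARA), -0.158 (RARG), -0.72 (RXRA) and -0.644 (RXRB) with that correction.

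The labels give numbers, not pairs. Deviations of same-numbered libraries correlated at 0.605 in 143B and -0.106 in HOS over genes, with 2 pairs each. With the replicate block CRABP1 in HOS had adjusted p = 0.0505, and no other HOS member changed its call. A crossed block in HOS, added after seeing the data, gave 8458 genes and 6 members called.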
